A study of Mus musculus with 44 samples.

Results

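The Ikaros family was followed through H3K4 methylation and Snai1 binding in mouse blood progenitor cells that carried wild-type Snai1, mutant Snai1 or an empty vector. The family was taken as the 5 genes Ikzf1 to Ikzf5, chosen by name, out of 27095 gene IDs in the deposited table of counts at transcription start sites. For each gene the counts in its start-site window were read in every library of both marks and of IgG, and every Snai1 peak inside the gene or within 50 kb of it was listed. All 5 genes had a row, and all 5 had enough reads to be tested in both marks. On GRCm38.p6, Ikzf1 lies at chr11:11684962-11772930, Ikzf2 at chr1:69531207-69687351, Ikzf3 at chr11:98464610-98546031, Ikzf4 at chr10:128630839-128669671 and Ikzf5 at chr7:131388649-131410518.

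The cells were HPC7, a mouse haematopoietic progenitor line that was grown with 100 ng/ml of mouse stem cell factor. They were transduced with the MSCV-IRES-GFP retrovirus carrying wild-type Snai1, mutant Snai1 or no insert (empty vector), and GFP-positive cells were sorted 1 week later and expanded. The mutant has alanine in place of phenylalanine at residue 5, a change that impairs its interaction with Lsd1. All 3 groups share the line, the vector backbone and the GFP sort, Snai1 was driven by the retrovirus and not by its own promoter, and the counts are averages over bulk cells. H3K4me2 and H3K4me1 had 3 libraries per construct each, IgG had 2 libraries from wild-type Snai1 cells only, and the Snai1 ChIP and its input each had 4 technical replicates per construct, deposited as 1 peak list per construct. Nothing in the labels says that the numbered methylation replicates are separate transductions or cultures, so p-values measure the spread between these libraries, which may be technical.

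Ikaros family proteins are zinc finger transcription factors: fingers near the amino end bind DNA, and fingers near the carboxyl end join members into pairs with themselves or each other. Ikaros (Ikzf1) is needed for lymphocyte development and is already active in multipotent progenitors, and it works in part with the NuRD chromatin remodelling complex. Helios (Ikzf2) is found in early progenitors and in regulatory T cells, Aiolos (Ikzf3) mainly in B and T cells, Eos (Ikzf4) in regulatory T cells, and Pegasus (Ikzf5), the most distant relative, in many tissues. Snai1 is a zinc finger repressor that binds E-box DNA, with CAGGTG as its best known form, and brings the demethylase Lsd1, which removes methyl groups from singly and doubly methylated H3K4. H3K4me2 is typical of active and poised promoters and enhancers, and H3K4me1 of enhancers and of the flanks of promoters.

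The promoters available for the family are shown first, because they are where a start-site window and a Snai1 peak can be read on the same bases. The RefSeq table of GRCm38.p6 gave promoters of 300 bases (250 before and 50 after the start) for Ikzf1, with 2 annotated starts, and for Ikzf5. The capitals mark the bases that lie inside a mutant Snai1 peak. Ikzf1 has none in either promoter, and in Ikzf5 the first 177 bases are inside.
Ikzf1, first start, chr11:11685675-11685974, plus strand: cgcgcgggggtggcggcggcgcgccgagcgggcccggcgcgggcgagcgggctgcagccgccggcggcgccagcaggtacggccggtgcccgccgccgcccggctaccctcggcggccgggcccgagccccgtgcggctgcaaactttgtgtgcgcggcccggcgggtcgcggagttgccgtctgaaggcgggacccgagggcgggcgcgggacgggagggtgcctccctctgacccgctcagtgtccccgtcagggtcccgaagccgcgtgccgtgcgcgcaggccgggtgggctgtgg
Ikzf1, second start, chr11:11689927-11690226, plus strand: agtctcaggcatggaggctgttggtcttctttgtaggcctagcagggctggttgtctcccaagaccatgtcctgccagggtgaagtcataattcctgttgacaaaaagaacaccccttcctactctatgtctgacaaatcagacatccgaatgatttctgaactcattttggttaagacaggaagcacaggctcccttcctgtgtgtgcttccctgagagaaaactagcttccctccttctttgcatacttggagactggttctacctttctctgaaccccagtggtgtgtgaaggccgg
Ikzf5, chr7:131410429-131410728, minus strand: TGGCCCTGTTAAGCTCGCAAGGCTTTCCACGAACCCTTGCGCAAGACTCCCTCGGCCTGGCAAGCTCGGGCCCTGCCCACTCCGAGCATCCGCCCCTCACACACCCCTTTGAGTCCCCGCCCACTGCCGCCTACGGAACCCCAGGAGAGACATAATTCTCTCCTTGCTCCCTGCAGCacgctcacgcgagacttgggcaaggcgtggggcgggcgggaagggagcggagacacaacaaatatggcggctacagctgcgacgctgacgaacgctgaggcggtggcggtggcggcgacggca

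The first Ikzf1 promoter was 81.3% G and C with 52 CG dinucleotides, the second 49.0% with 2, and that of Ikzf5 65.7% with 27, beside a median of 52.7% G and C over 32851 promoters. The letters CAGGTG, or CACCTG for the other strand, were in none of these 3 promoters and in 20.2% of all promoters. The wider E-box form CANNTG, which includes CAGGTG and reads alike on both strands, was absent from both Ikzf1 promoters, was present once in that of Ikzf5 (CAGCTG, starting at base 251, outside the peak) and was in 72.3% of all promoters. A pair of promoters of neighbouring genes is shown as well, because the strongest mutant peak near the family and the one peak found in all 3 lists cover them. In the promoter of 2310057M21Rik, all of which lies inside a mutant peak, capitals mark the CANNTG words CACCTG at base 39 and CACGTG at base 142. In that of Ormdl3, capitals mark the bases from 74 to 300, which lie inside peaks. The Ormdl3 promoter holds 3 CANNTG words, at bases 3, 18 and 44, all outside the peaks. Of the other neighbouring promoters under mutant peaks, those of Fignl1 and Rps26 hold no CANNTG word. That of Acadsb holds 1, outside its peak, and that of Mien1 holds CAGCTG and CACGTG inside its peak. Among these neighbours only the 2310057M21Rik promoter holds CAGGTG or CACCTG.
2310057M21Rik, near Ikzf5, chr7:131362677-131362976, minus strand: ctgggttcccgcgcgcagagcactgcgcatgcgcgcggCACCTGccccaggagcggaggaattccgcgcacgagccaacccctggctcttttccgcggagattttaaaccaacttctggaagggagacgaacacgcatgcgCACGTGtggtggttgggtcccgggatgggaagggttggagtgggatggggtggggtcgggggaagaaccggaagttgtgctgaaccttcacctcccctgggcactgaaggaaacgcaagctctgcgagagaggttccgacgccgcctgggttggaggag
Ormdl3, near Ikzf3, chr11:98587196-98587495, minus strand: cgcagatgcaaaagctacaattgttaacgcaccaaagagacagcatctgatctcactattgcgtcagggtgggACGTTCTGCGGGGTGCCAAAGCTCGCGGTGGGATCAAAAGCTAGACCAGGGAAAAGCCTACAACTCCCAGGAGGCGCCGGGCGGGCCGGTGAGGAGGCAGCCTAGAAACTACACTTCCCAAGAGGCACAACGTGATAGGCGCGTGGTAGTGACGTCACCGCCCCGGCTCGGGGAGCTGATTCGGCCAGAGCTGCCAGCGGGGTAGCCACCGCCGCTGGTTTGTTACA

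The total count of a library was 8694515 to 18199945 for H3K4me2, 4042976 to 8813537 for H3K4me1, and 2714255 and 3355479 for the 2 IgG libraries. In both marks replicate 1 stood apart from replicates 2 and 3: the variance between replicate 1 and another replicate of its group was 9.49 to 17.7 times that of counting error over 12 pairs, against 0.98 to 2.3 times between replicates 2 and 3 over 6 pairs. The labels name no batch, so values within replicate 1 and within replicates 2 and 3 are given beside the pooled ones. Empty-vector H3K4me1 replicates 2 and 3 differed by less than counting error, so they entered the main tests as 1 sample (n = 2 there, n = 3 elsewhere). The label of a progenitor line was checked in wild-type Snai1 cells, the one group with IgG, where 36.1% of all windows were above IgG in H3K4me2 and 27.7% in H3K4me1. In H3K4me2, 9 of 10 genes of a blood progenitor marker list were above IgG, against 1 of 9 B cell, 0 of 8 T cell, 1 of 5 macrophage, 0 of 6 fibroblast and 0 of 5 epithelial genes. For H3K4me1 the counts were 10 of 10 progenitor, 3 of 9 B cell, 1 of 8 T cell, 2 of 5 macrophage, 0 of 6 fibroblast and 1 of 5 epithelial genes. The summed H3K4me2 level of the 5 macrophage genes was 80.4 to 127 CPM with wild-type Snai1 and 125 to 140 CPM with mutant Snai1, against 129 to 156 CPM with the empty vector. The wild-type and empty-vector groups thus did not overlap, by a margin of 127 against 129 CPM. The H3K4me2 sums of the other marker lists overlapped between these groups. Among all single H3K4me2 windows, 12.9% did not overlap there. In H3K4me1 the macrophage sum overlapped, at 233 to 339 CPM with wild-type Snai1 and 331 to 368 CPM with the empty vector. The part of the H3K4me2 difference in the results on the family was not tested.

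The family divided by level into Ikzf1, Ikzf2 and Ikzf5, whose windows carried much H3K4me2, and Ikzf3 and Ikzf4, whose windows carried far less and were near the middle of all windows. Levels are given as CPM (reads scaled to a common library size) on TMM-scaled library sizes. Comparing them between genes assumes windows of equal width, which could not be checked without window coordinates. IgG itself averaged 63 CPM of the column total at Ikzf2, 48 at Ikzf1 and 36 at Ikzf5 in wild-type Snai1 cells. Over the 9 H3K4me2 libraries the level was 233 to 298 CPM for Ikzf2, 131 to 176 for Ikzf1, 66.2 to 76.8 for Ikzf5, 7.47 to 16 for Ikzf3 and 3.5 to 6.38 for Ikzf4. No 2 neighbours in this order overlapped in any library. In H3K4me1 the ranges were 63.3 to 103 CPM for Ikzf2 and 69.7 to 107 for Ikzf1, which overlapped, 34.6 to 43.3 for Ikzf5, which stood apart from those on both sides, and 13.2 to 19.9 for Ikzf3 and 12.3 to 24.3 for Ikzf4, which overlapped. The lowest raw H3K4me2 count was 32 reads, for Ikzf4, and the lowest for Ikzf2 was 2277 reads, so the counting error is larger for the low windows.

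**Figure D1:**
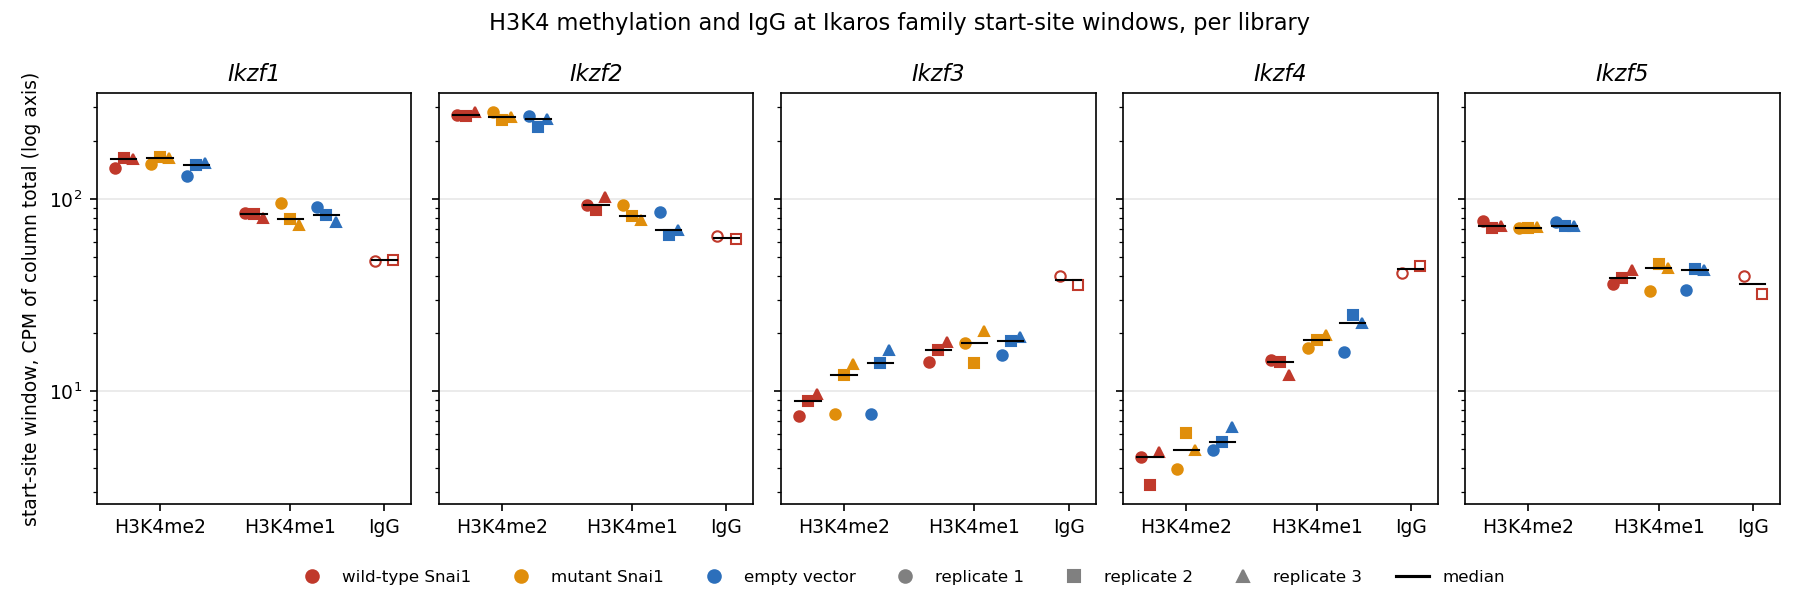
Level of each Ikaros family window in every H3K4me2, H3K4me1 and IgG library, in CPM of the column total on a log axis, with colours for constructs, symbols for replicates and lines at the median of each group. Ikzf1, Ikzf2 and Ikzf5 sit above IgG in H3K4me2, Ikzf3 and Ikzf4 sit below it in both marks, and the constructs lie close together within each mark.

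Against IgG in wild-type Snai1 cells, 3 of the 5 windows were enriched for H3K4me2, where 36.1% of 26313 windows were higher and 55.7% lower at an adjusted p under 0.05. Levels here are CPM of the column total, and p-values come from the edgeR quasi-likelihood F-test, adjusted by Benjamini-Hochberg over every window tested. Ikzf2 averaged 276 ± 5.77 CPM in H3K4me2 and 63 ± 1.55 CPM in IgG (SD, n = 3 and n = 2), a log2 ratio of 2.13 ± 0.243 (SE, adjusted p = 2.84e-06), and 12 of all 27044 windows had a higher mean in H3K4me2. Ikzf1 averaged 157 ± 10.8 CPM in H3K4me2 and 48 ± 0.407 CPM in IgG, a log2 ratio of 1.71 ± 0.171 (adjusted p = 8.72e-07), and stood above 98.4% of windows. Ikzf5 averaged 73.4 ± 3 CPM in H3K4me2 and 36 ± 5.58 CPM in IgG, a log2 ratio of 1.02 ± 0.138 (adjusted p = 1.35e-05). In wild-type Snai1 cells the Ikaros, Helios and Pegasus windows were thus marked with H3K4me2, while those of Aiolos and Eos were below IgG.

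Ikzf3 averaged 8.73 ± 1.16 CPM in H3K4me2 and 37.7 ± 2.76 CPM in IgG, a log2 ratio of -2.12 ± 0.259 (adjusted p = 5.36e-06). Ikzf4 averaged 4.22 ± 0.84 CPM in H3K4me2 and 43.1 ± 2.7 CPM in IgG, a log2 ratio of -3.34 ± 0.273 (adjusted p = 2.21e-07). In IgG both were near the median window, which held 38.1 and 37.9 CPM in the 2 libraries. The counts cover start-site windows only, so a ratio below IgG is relative to the other windows of the library and is no measure of absolute loss. Among all windows by H3K4me2 level, Ikzf3 stood above 50.6% and Ikzf4 above 42.2%, so neither was unusually low.

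In H3K4me1, 2 of the 5 windows were above IgG, where 27.7% of 26166 windows were higher and 48.4% lower. Ikzf1 averaged 82.9 ± 2.77 CPM in H3K4me1, against the same 48 ± 0.407 CPM in IgG, a log2 ratio of 0.79 ± 0.154 (adjusted p = 7.25e-04). Ikzf2 averaged 94 ± 7.28 CPM in H3K4me1, a log2 ratio of 0.58 ± 0.163 (adjusted p = 0.00766). The call for Ikzf2 was lost without wild-type replicate 3, where the log2 ratio was 0.52 (adjusted p = 0.0639). Ikzf5 averaged 39.3 ± 3.49 CPM in H3K4me1 and did not pass, with a log2 ratio of 0.12 ± 0.181 (adjusted p = 0.567). With TMM scaling in place of column totals its ratio was 0.63 (adjusted p = 0.00861). Ikzf3 at 16.2 ± 1.84 CPM and Ikzf4 at 13.7 ± 1.27 CPM were again below IgG, with log2 ratios of -1.22 (adjusted p = 0.00102) and -1.65 (adjusted p = 1.04e-04).

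The balance of the marks set the genes apart as well. In wild-type Snai1 cells the log2 ratio of H3K4me2 over H3K4me1, each in CPM of the column total, averaged 1.56 ± 0.08 for Ikzf2, 0.91 ± 0.17 for Ikzf5, 0.92 ± 0.14 for Ikzf1, -0.90 ± 0.03 for Ikzf3 and -1.71 ± 0.40 for Ikzf4 (SD over replicates 1 to 3, matched by number for the ratio only). In mutant Snai1 cells it was 1.68 ± 0.09 for Ikzf2, 0.80 ± 0.24 for Ikzf5, 0.97 ± 0.26 for Ikzf1, -0.68 ± 0.51 for Ikzf3 and -1.89 ± 0.25 for Ikzf4. In empty-vector cells it was 1.81 ± 0.14 for Ikzf2, 0.90 ± 0.25 for Ikzf5, 0.80 ± 0.26 for Ikzf1, -0.53 ± 0.42 for Ikzf3 and -1.89 ± 0.27 for Ikzf4. The window of Eos held relatively more H3K4me1 in every construct, and that of Helios far more H3K4me2. Among all windows of empty-vector cells, whose median ratio was -0.44, Ikzf2 had a higher ratio than 99.6%, Ikzf5 than 94.9%, Ikzf1 than 92.9%, Ikzf3 than 49.1% and Ikzf4 than 10.1%. The difference between constructs in this ratio was not tested.

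**Figure D2:**
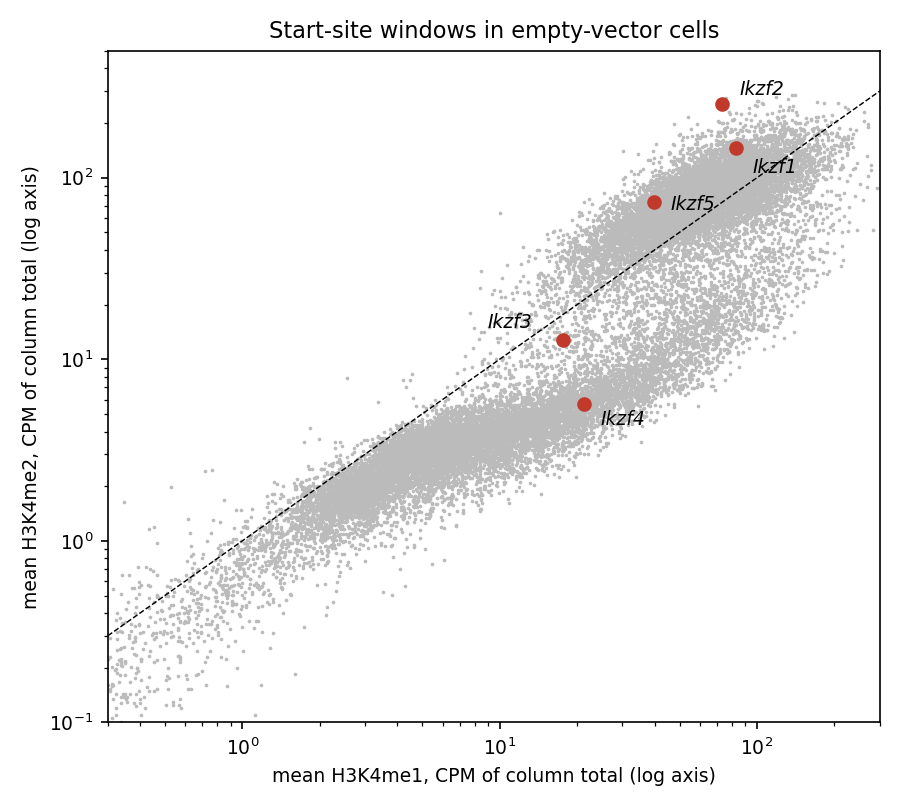
Mean H3K4me2 against mean H3K4me1 of every start-site window in empty-vector cells, in CPM of the column total on log axes, with the Ikaros family in red and a dashed line where the marks are equal. Ikzf1, Ikzf2 and Ikzf5 lie above the line, and Ikzf3 and Ikzf4 lie below it, Ikzf4 farther than Ikzf3.

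Neither Snai1 construct changed a family window past the threshold in either mark: 0 of 5 windows passed in each of the 6 comparisons, and 0 of the 30 values had an unadjusted p under 0.05, the smallest being 0.0595 (edgeR). An unadjusted p under 0.05 was found for 7.32% of all H3K4me2 windows for the wild type against the empty vector, 4.95% for the mutant against the empty vector and 9.9% for wild type against mutant, and for 2.88%, 1.61% and 5.24% of H3K4me1 windows in the same order. With the replicate number as a block, 2 of the 30 values had an unadjusted p under 0.05, both in H3K4me1 for the wild type against the empty vector, where 11.3% of all windows did in the same fit: Ikzf2 at a log2 fold change of 0.40 (edgeR adjusted p = 0.287) and Ikzf4 at -0.58 (edgeR adjusted p = 0.271). In that fit empty-vector replicates 2 and 3 entered as separate samples. Kept separate without a block, 1 of the 5 windows and 6.79% of all windows had an unadjusted p under 0.05 in that comparison. With them as 1 sample and a batch term for replicate 1, 2 of the 5 and 7.24% of all windows did. DESeq2 also called 0 of 30. Few windows passed anywhere in these fits, so the count says little about the family: the share that passed was 0.00388% of 25742 H3K4me2 windows (1 window) for wild-type Snai1 against the empty vector, 0% in the other H3K4me2 comparisons, and 0% of 25728 H3K4me1 windows in each comparison. Replicate 1 bears on that share. Each fit below drops replicate 1 from a single group, which then has only replicates 2 and 3. The group set beside it includes that divergent library, so construct and the replicate 1 difference are mixed. What part of each count is due to construct was not tested. In mutant H3K4me2, the variance between replicates 2 and 3 was 1.31 times that of counting error. Without mutant replicate 2 instead, 0 H3K4me2 windows passed in either comparison of the mutant. Without mutant replicate 1, 4289 H3K4me2 windows passed between wild-type and mutant Snai1 and 620 between the mutant and the empty vector. Without empty-vector replicate 1, 719 passed for the wild type and 407 for the mutant against the empty vector, and without wild-type replicate 1, 176 passed for the wild type against the empty vector and 247 against the mutant. In H3K4me1, 211 windows passed between wild type and mutant without mutant replicate 1, and 2 without wild-type replicate 1, and 2 passed for the wild type against the empty vector without wild-type replicate 1. The family had 0 of 5 in all of these.

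The libraries of 2 constructs did not overlap at 6 of the 30 values. In H3K4me2 these were Ikzf2, higher with wild-type Snai1 than with the empty vector (12.9% of all windows did not overlap there), Ikzf1, higher with mutant Snai1 than with the empty vector (6.86%), and Ikzf5, higher with wild-type than with mutant Snai1 (9.22%). In H3K4me1 they were Ikzf2 (higher) and Ikzf4 (lower) with wild-type Snai1 against the empty vector (10.8%), and Ikzf4, lower with wild-type than with mutant Snai1 (8.71%), and none was found for mutant Snai1 against the empty vector (7.95%). On column totals the 3 H3K4me1 cases and Ikzf2 in H3K4me2 stayed, while Ikzf1 and Ikzf5 in H3K4me2 were replaced by Ikzf4, lower with wild-type Snai1 than with the empty vector, and Ikzf5, lower with mutant Snai1 than with the empty vector. The comparisons against the empty vector share its libraries, so they are not independent.

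Ikzf1 in H3K4me2 had 145, 176 and 168 CPM with wild-type Snai1 and 161, 155 and 154 CPM with mutant Snai1, against 131, 148 and 150 CPM with the empty vector (replicates 1, 2 and 3 in order). Both Snai1 groups reached above the empty vector, and the wild-type group overlapped it through replicate 1. The log2 fold change was 0.19 ± 0.113 for the wild type against the empty vector (SE, 95% interval -0.05 to 0.43, adjusted p = 0.794), 0.13 for the mutant against the empty vector (-0.11 to 0.38, adjusted p = 0.952) and 0.06 for wild type against mutant (-0.19 to 0.30, adjusted p = 0.793). Within replicate 1 the wild-type difference from the empty vector was 0.15, and within replicates 2 and 3 it was 0.21, so the sign held in both. Wild type against mutant was -0.15 within replicate 1 and 0.15 within replicates 2 and 3.

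In H3K4me1, Ikzf1 had 83.8, 87.8 and 80.5 CPM with wild-type Snai1 and 107, 74 and 69.7 CPM with mutant Snai1, against 93.9, 79.9 and 73.4 CPM with the empty vector. Replicate 1 was the highest library in both the mutant and the empty-vector group, and all groups overlapped. The log2 fold changes were -0.02 for the wild type against the empty vector (95% interval -0.48 to 0.45), -0.03 for the mutant against the empty vector (-0.49 to 0.44) and 0.01 for wild type against mutant (-0.41 to 0.43), with adjusted p-values of 1, 1 and 0.999. These values near 0 turned sign under several settings. Within replicate 1 they were -0.16, 0.18 and -0.35 in the same order, and within replicates 2 and 3 they were 0.13, -0.09 and 0.23.

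Ikzf2 in H3K4me2 had 275, 291 and 293 CPM with wild-type Snai1 and 298, 242 and 253 CPM with mutant Snai1, against 270, 233 and 255 CPM with the empty vector. Every wild-type library stood above every empty-vector library, and the mutant group spanned both. The log2 fold change was 0.18 ± 0.124 for the wild type against the empty vector (95% interval -0.09 to 0.45, adjusted p = 0.843), 0.06 for the mutant against the empty vector (-0.20 to 0.33, adjusted p = 0.963) and 0.12 for wild type against mutant (-0.15 to 0.38, adjusted p = 0.638). The wild-type difference from the empty vector was 0.03 within replicate 1 and 0.26 within replicates 2 and 3.

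In H3K4me1, Ikzf2 had 91.9, 91.2 and 103 CPM with wild-type Snai1 and 103, 76.2 and 74.2 CPM with mutant Snai1, against 88.3, 63.3 and 67 CPM with the empty vector. The wild-type libraries were again all above the empty-vector ones. On the log2 scale the fold change was 0.31 ± 0.21 for the wild type against the empty vector (95% interval -0.15 to 0.77, adjusted p = 1), 0.14 for the mutant against the empty vector (-0.32 to 0.60, adjusted p = 1) and 0.17 for wild type against mutant (-0.24 to 0.58, adjusted p = 0.999). Within replicate 1 the wild-type difference from the empty vector was 0.06, and within replicates 2 and 3 it was 0.57. Ikzf2 was thus positive for the wild type against the empty vector in both marks and in both subsets of replicates, without passing the test. The mutant against the empty vector was positive there too: 0.14 and 0.02 in H3K4me2, 0.23 and 0.21 in H3K4me1 (replicate 1, then 2 and 3). Wild type against mutant turned sign between the subsets: -0.12 and 0.24 in H3K4me2, -0.17 and 0.36 in H3K4me1. With the replicate block, and empty-vector replicates 2 and 3 as separate samples, the wild type against the empty vector was 0.40 ± 0.142 in H3K4me1 (edgeR adjusted p = 0.287).

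Ikzf3, the low Aiolos window, had 7.47, 9.61 and 10.1 CPM of H3K4me2 with wild-type Snai1 and 8.04, 11.3 and 13 CPM with mutant Snai1, against 7.67, 13.9 and 16 CPM with the empty vector. Replicate 1 was the lowest library in every group, and the empty-vector libraries alone spanned a wider range than either Snai1 group, so the groups overlapped. The log2 fold change was -0.47 ± 0.304 for the wild type against the empty vector (95% interval -1.12 to 0.19, adjusted p = 0.827), -0.22 for the mutant against the empty vector (-0.87 to 0.43, adjusted p = 0.956) and -0.25 for wild type against mutant (-0.90 to 0.41, adjusted p = 0.674). The wild-type difference from the empty vector was -0.04 within replicate 1 and -0.60 within replicates 2 and 3. In H3K4me1 the window had 14.1, 17.2 and 18.1 CPM with wild-type Snai1 and 19.9, 13.2 and 19.6 CPM with mutant Snai1, against 15.9, 17.7 and 18.4 CPM with the empty vector. All 3 groups overlapped, and the log2 fold changes were -0.05 for the wild type against the empty vector (95% interval -0.64 to 0.54), 0.04 for the mutant against the empty vector (-0.54 to 0.63) and -0.09 for wild type against mutant (-0.63 to 0.44). Within replicate 1 these were -0.17, 0.32 and -0.49 in the same order, and within replicates 2 and 3 they were -0.03, -0.14 and 0.11.

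Ikzf4, the Eos window, had 4.56, 3.5 and 5.01 CPM of H3K4me2 with wild-type Snai1 and 4.19, 5.68 and 4.7 CPM with mutant Snai1, against 4.99, 5.39 and 6.38 CPM with the empty vector. The wild-type and empty-vector groups overlapped by a narrow margin. On the log2 scale, wild type against mutant was 0.12 within replicate 1 and -0.29 within replicates 2 and 3. Against the empty vector the same subsets gave -0.13 and -0.47 for the wild type and -0.25 and -0.18 for the mutant. In the fit, the log2 fold change was -0.35 ± 0.234 for the wild type against the empty vector (95% interval -0.85 to 0.16, adjusted p = 0.838), -0.20 for the mutant against the empty vector (-0.70 to 0.30, adjusted p = 0.956) and -0.15 for wild type against mutant (-0.65 to 0.36, adjusted p = 0.747).

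In H3K4me1, Ikzf4 had 14.4, 14.9 and 12.3 CPM with wild-type Snai1 and 18.7, 17.4 and 18.7 CPM with mutant Snai1, against 16.5, 24.3 and 21.9 CPM with the empty vector. The wild-type group lay below both others without overlap. Its log2 fold change was -0.52 ± 0.245 for the wild type against the empty vector (95% interval -1.05 to 0.02, unadjusted p = 0.0595, adjusted p = 1), -0.39 ± 0.225 for wild type against mutant (-0.89 to 0.10, adjusted p = 0.999) and -0.12 for the mutant against the empty vector (-0.66 to 0.42, adjusted p = 1). Wild type against mutant was -0.38 within replicate 1 and -0.40 within replicates 2 and 3, and wild type against the empty vector was -0.20 and -0.76 in the same subsets. With the replicate block, and empty-vector replicates 2 and 3 as separate samples, the value against the empty vector was -0.58 ± 0.197 (adjusted p = 0.271). Without the block, the value for the wild type against the empty vector had the smallest unadjusted p of the 30 in the family, and it ranked at place 908 among all H3K4me1 windows of that comparison.

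Ikzf5 in H3K4me2 had 76.8, 76 and 75.4 CPM with wild-type Snai1 and 74.7, 66.2 and 67.7 CPM with mutant Snai1, against 76.2, 71.7 and 70.5 CPM with the empty vector. The wild-type libraries were the tightest group and lay above all mutant libraries. Fitted log2 fold changes were 0.06 ± 0.0924 for the wild type against the empty vector (95% interval -0.14 to 0.26, adjusted p = 0.945), -0.07 for the mutant against the empty vector (-0.27 to 0.13, adjusted p = 0.956) and 0.13 ± 0.0921 for wild type against mutant (-0.07 to 0.33, adjusted p = 0.542, the smallest adjusted p in the family). Without mutant replicate 1 the last value was 0.22 (adjusted p = 0.0672), the lowest of 495 adjusted p-values over all settings. In that fit construct and the replicate 1 difference are mixed, since only the wild-type side includes replicate 1. In H3K4me1 the window had 35.5, 40.6 and 43.3 CPM with wild-type Snai1 and 37.2, 43.1 and 41.8 CPM with mutant Snai1, against 34.6, 42.1 and 41.2 CPM with the empty vector. Replicate 1 was the lowest library in each group, the groups overlapped, and the log2 fold changes were 0.06 for the wild type against the empty vector (95% interval -0.32 to 0.44), 0.09 for the mutant against the empty vector (-0.29 to 0.47) and -0.03 for wild type against mutant (-0.38 to 0.32).

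**Figure D3:**
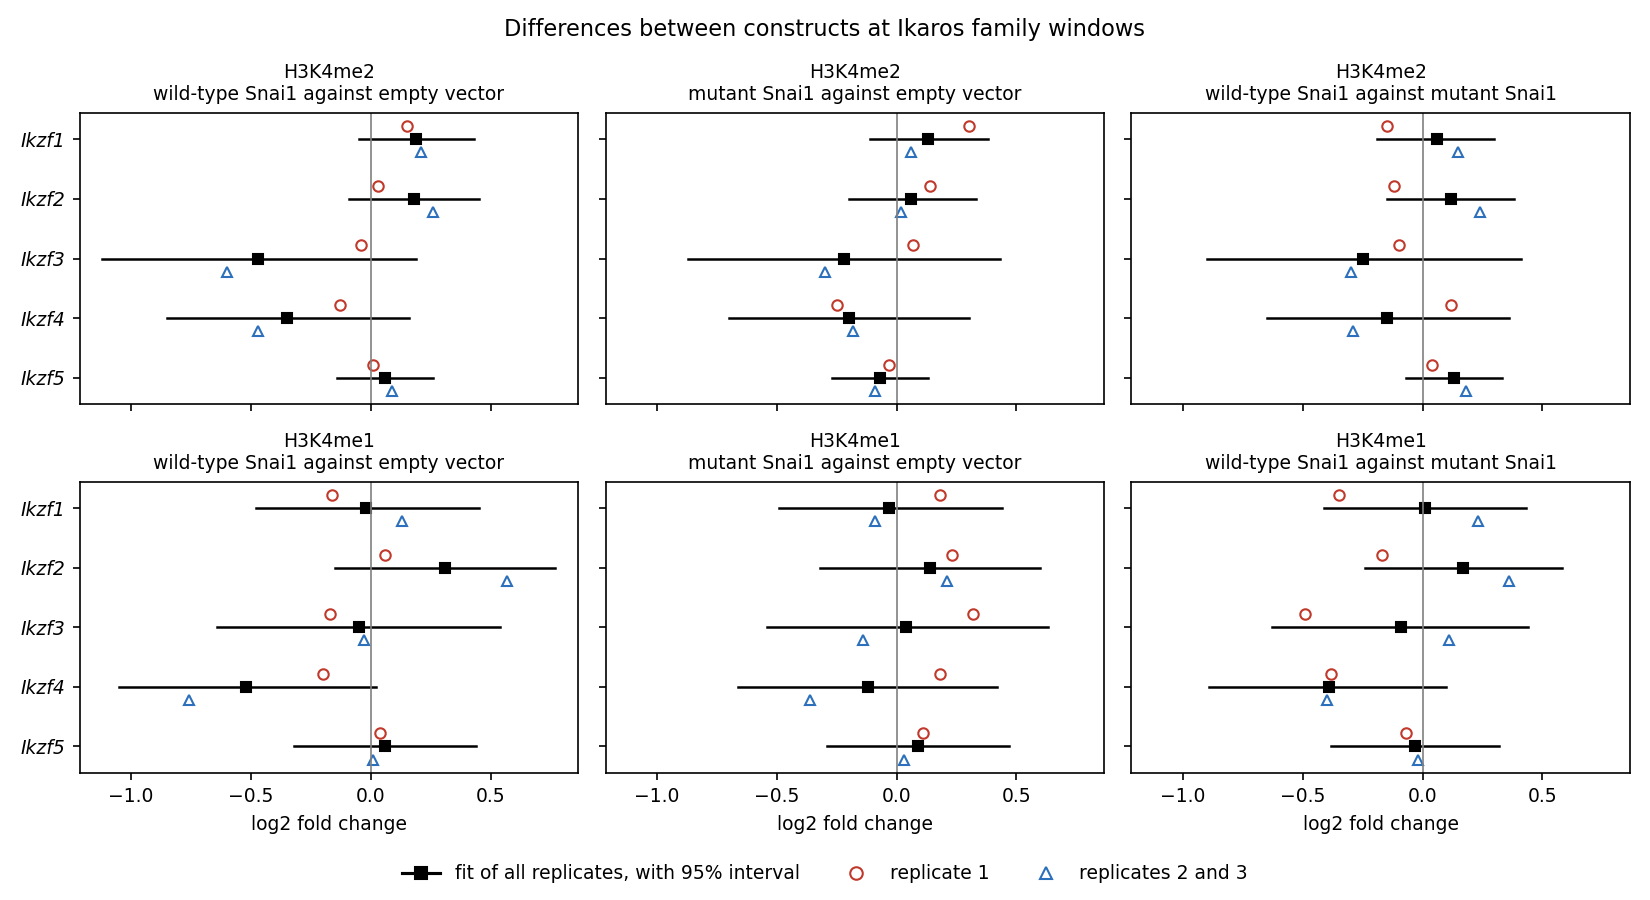
Log2 fold change of each Ikaros family window in the 6 comparisons, with squares and bars for the fit of all replicates and its 95% interval, circles for replicate 1 alone and triangles for replicates 2 and 3. Every interval includes 0. The 2 subsets of replicates had the same sign in 19 of 30 values, with no share over all windows to set beside it. For wild-type Snai1 and the empty vector the count was 5 of 5 in H3K4me2 and 4 of 5 in H3K4me1. In that H3K4me2 comparison replicate 1 gave 0.03 for Ikzf2, -0.04 for Ikzf3 and 0.01 for Ikzf5, all near 0. It gave 0.15 for Ikzf1 and -0.13 for Ikzf4. For mutant Snai1 and the empty vector the count was 4 of 5 in H3K4me2 and 2 of 5 in H3K4me1. Between the Snai1 constructs it was 2 of 5 in each mark.

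The Ikzf5 window cannot be told apart from that of its neighbour Acadsb, an acyl-CoA dehydrogenase gene on the other strand. The start sites are 123 bp apart, and the windows held 7983 reads for Ikzf5 and 7998 for Acadsb over the H3K4me2 libraries, and 2135 and 2152 over the H3K4me1 libraries. The values given for Pegasus therefore hold for this shared promoter. The other close neighbours differed more: Ikzf4 had 531 H3K4me2 reads in all and Suox, the sulfite oxidase gene beside it, had 7702, and Ikzf3 had 1119 beside 5506 in Zpbp2.

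Among 21018 windows of known genes with enough reads in both marks, those most like each member over the 18 methylation libraries were found by Pearson's r of log2(CPM + 1), centred on each mark. These values describe libraries that share constructs and replicate 1, and they carry no test. For Ikzf1 they were Hs6st1 (0.91), Macir (0.89) and Trp53cor1 (0.89), and for Ikzf2 they were Glp1r (0.95), Ppil1 (0.95) and Nrm (0.94), all on chromosome 17. For Ikzf3 they were Mir339 (0.91), Col17a1 (0.88) and Spn (0.88), for Ikzf4 they were Bcl2a1b (0.89), Mir5110 (0.89) and Mir701 (0.88), and for Ikzf5 they were Acadsb (1.00), Taf9 (0.92) and Rad17 (0.91). Within the family r was 0.61 for Ikzf1 and Ikzf2, 0.43 for Ikzf3 and Ikzf4, -0.47 for Ikzf1 and Ikzf5 and -0.76 for Ikzf2 and Ikzf4. The other pairs lay from -0.28 to 0.11. No spread of r over all pairs of windows was computed to set beside these values.

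Genes that act with Ikaros proteins were read from 3 lists: 17 genes of the NuRD complex and other corepressors, 5 genes of the cereblon ubiquitin ligase, which in human cells breaks down IKAROS and AIOLOS in the presence of lenalidomide, and 26 genes known as Ikaros targets or partners in lymphoid and progenitor cells. All 48 were tested, and 0 passed in either direction in each of the 6 comparisons (edgeR). An unadjusted p under 0.05 was found for 2 of 17 NuRD, 0 of 5 cereblon and 7 of 26 target genes in H3K4me2 with wild-type Snai1 against the empty vector (7.32% of all windows), for 0, 0 and 3 with mutant Snai1 against the empty vector (4.95%), and for 3, 0 and 6 between wild type and mutant (9.9%). In H3K4me1 the counts in the same order were 0, 0 and 2 (2.88%), then 0, 0 and 1 (1.61%), and then 0, 1 and 1 (5.24%). DESeq2 called 1 of these values, Il7r in H3K4me2 with wild-type Snai1 against the empty vector, where it called 88 of the 16739 windows that it gave an adjusted p (0.526%). It gave one to 22 of the 26 targets there. For H3K4me2 with wild-type Snai1 against the empty vector, the median log2 fold change was 0.09 for the NuRD list (10 of 17 above 0), -0.03 for the cereblon list (2 of 5 above 0) and 0.04 for the target list (14 of 26 above 0), beside -0.01 over all windows. For H3K4me2 with wild type against mutant the medians were 0.15 (12 of 17 above 0), -0.14 (2 of 5 above 0) and 0.08 (14 of 26 above 0), beside -0.04 over all windows, and with mutant against empty vector they were -0.03, 0.08 and -0.05, beside 0.03. In H3K4me1 the NuRD medians were 0.01 for the wild type and 0.01 for the mutant against the empty vector and 0.06 for wild type against mutant, those of the cereblon list 0.04, 0.00 and 0.07, and those of the target list 0.03, -0.08 and 0.11.

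The members of these lists with the smallest p did not pass in edgeR. In H3K4me2 with wild-type Snai1 against the empty vector they were Rbbp7, a histone-binding subunit of NuRD (102 ± 12.5 CPM with wild-type Snai1 and 58.1 ± 24.4 CPM with the empty vector, log2 0.80, adjusted p = 0.512), and Mta3, a further NuRD subunit (162 ± 25.6 and 124 ± 13 CPM in the same order, log2 0.39, adjusted p = 0.538). Among the targets they were Hes1, a Notch target gene (86.4 ± 16.8 CPM with wild-type Snai1 and 56.5 ± 5.69 CPM with the empty vector, log2 0.61, adjusted p = 0.446), and Il7r, the interleukin-7 receptor of lymphoid progenitors (3.22 ± 0.543 and 8.56 ± 3.99 CPM, log2 -1.38, adjusted p = 0.446). Il7r was also the target with the smallest p for mutant Snai1 against the empty vector in H3K4me2 (log2 -0.95, adjusted p = 0.952) and in H3K4me1 (log2 -1.13, adjusted p = 1), and for wild-type Snai1 against the empty vector in H3K4me1 (log2 -1.64, adjusted p = 1). These comparisons share the empty-vector libraries, in which the Il7r window varied widely. Between wild-type and mutant Snai1 in H3K4me2 the target with the smallest p was Cdkn1a, the p21 cell cycle inhibitor gene (202 ± 29.2 CPM with wild-type and 134 ± 33.5 CPM with mutant Snai1, log2 0.59, adjusted p = 0.503). In H3K4me1 between the same groups, Cul4a, a scaffold of the cereblon ligase, had 68.2 ± 11.5 CPM with wild-type and 91.1 ± 2.27 CPM with mutant Snai1 (log2 -0.41, adjusted p = 0.898).

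Snai1 peaks lay inside or within 50 kb of 4 of the 5 genes in the wild-type list (25.4% of 25169 genes), of 5 of 5 in the mutant list (56.4%) and of 1 of 5 in the empty-vector list (1.78%). The lists hold 2929 wild-type, 12037 mutant and 137 empty-vector peaks, each from 4 technical replicates with no replicate check, so the number near a gene moves with the length of the list. Family genes are long: Ikzf2 at 156145 bp is longer than 94.4% of genes, Ikzf1 at 87969 bp than 88.5% and Ikzf5 at 21870 bp than 60.7%, which gives a peak more room. In all there were 25 peaks, 6 wild-type, 18 mutant and 1 empty-vector, at 19 places, of which 13 were in the mutant list alone, 1 in the wild-type list alone, 4 in both Snai1 lists and 1 in all 3. Within 5 kb the numbers of genes were 1 in the wild-type list (10.2% of genes), 4 in the mutant list (32.9%) and 0 in the empty-vector list (0.588%). With a −log10 q of at least 10 and within 50 kb they were 3 in the wild-type list (12.7%), 5 in the mutant list (39%) and 1 in the empty-vector list (1.18%). Fold enrichment and −log10 q are the authors' values for each peak, and folds are not compared between lists.

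Ikzf1 had 2 wild-type and 7 mutant peaks. Inside the gene there were mutant peaks only, at chr11:11686513-11686845 (fold 9.04), with its summit 745 bp after the first annotated start, at chr11:11751197-11751577 (fold 12.4) and at chr11:11711830-11712103 (fold 5.29). Both wild-type peaks lay outside: chr11:11656380-11656696 (fold 9.84), 28266 bp below the gene in the predicted gene Gm11999, and chr11:11812009-11812461 (fold 14.3), 39079 bp above the gene and 1640 bp from Ddc, the dopa decarboxylase gene. The second had the highest fold of the 6 wild-type peaks near the family and was at rank 111 of its list by q. Both places were also in the mutant list, with summits 10 and 17 bp away (folds 12.5 and 8.76). The nearest wild-type summit lay 28415 bp from the lower-coordinate end of Ikzf1.

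Ikzf2 was the only member with a wild-type peak inside it. The place chr1:69684665-69685014, inside the gene near its higher-coordinate end, had a wild-type peak of fold 9.78 and a mutant peak of fold 8.03, with summits 31 bp apart and 2535 and 2504 bp from that end. A weaker wild-type peak at chr1:69654953-69655152 (fold 3.52) overlapped no other peak and ranked at 2748 of 2929. A pair of mutant peaks lay outside, at chr1:69507575-69507785 and chr1:69513541-69513925 (folds 3.87 and 3.21). No other annotated gene was as near to any of these 5 peaks as Ikzf2.

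No peak lay inside Ikzf3. The one place found in all 3 lists, chr11:98587161-98587422, is 41130 bp from it, in the Ormdl3 promoter printed above, with Gm31460, Lrrc3c and Gm38981 also nearer than Ikzf3. Its folds were 7.17 in the wild-type list, 6.71 in the mutant list and 12.5 in the empty-vector list, so a peak was called there in cells without the Snai1 insert. The other 3 were mutant peaks. The nearest, chr11:98457519-98457738 (fold 6.71), was 6872 bp from Ikzf3 and overlapped Mien1, with Grb7 also nearer. A further one lay on the Mien1 promoter (chr11:98438711-98439161, fold 4.44), near Erbb2 and Grb7, and one in Ormdl3 (chr11:98583283-98583531, fold 7.29).

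Ikzf4 had no wild-type peak and 2 mutant ones. That at chr10:128626538-128626922 (fold 7) was 3917 bp from the gene, on the promoter of Rps26, a ribosomal protein gene. That at chr10:128590161-128590610 (fold 8.88) was 40229 bp away and 526 bp from Erbb3, a receptor tyrosine kinase gene, with Mir6917, Pa2g4 and Gm9182 also nearer.

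Ikzf5 had 1 wild-type and 2 mutant peaks. The mutant peak at chr7:131410552-131410751 (fold 4.37, rank 10548 of 12037 by q) overlapped the promoter printed above and that of Acadsb, with its summit 141 bp before the Ikzf5 start. The other place, chr7:131362653-131363102, covered the 2310057M21Rik promoter with its CACCTG and CACGTG words, 25547 bp from Ikzf5, with Pstk also nearer. There the fold was 15.3 in the mutant list, the highest of the 18 mutant peaks near the family. In the wild-type list, on its own scale, it was 5.26. Of the Ikzf1 and Ikzf5 promoters, the only ones of the family that could be read, this one alone overlapped a peak.

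**Figure D4:**
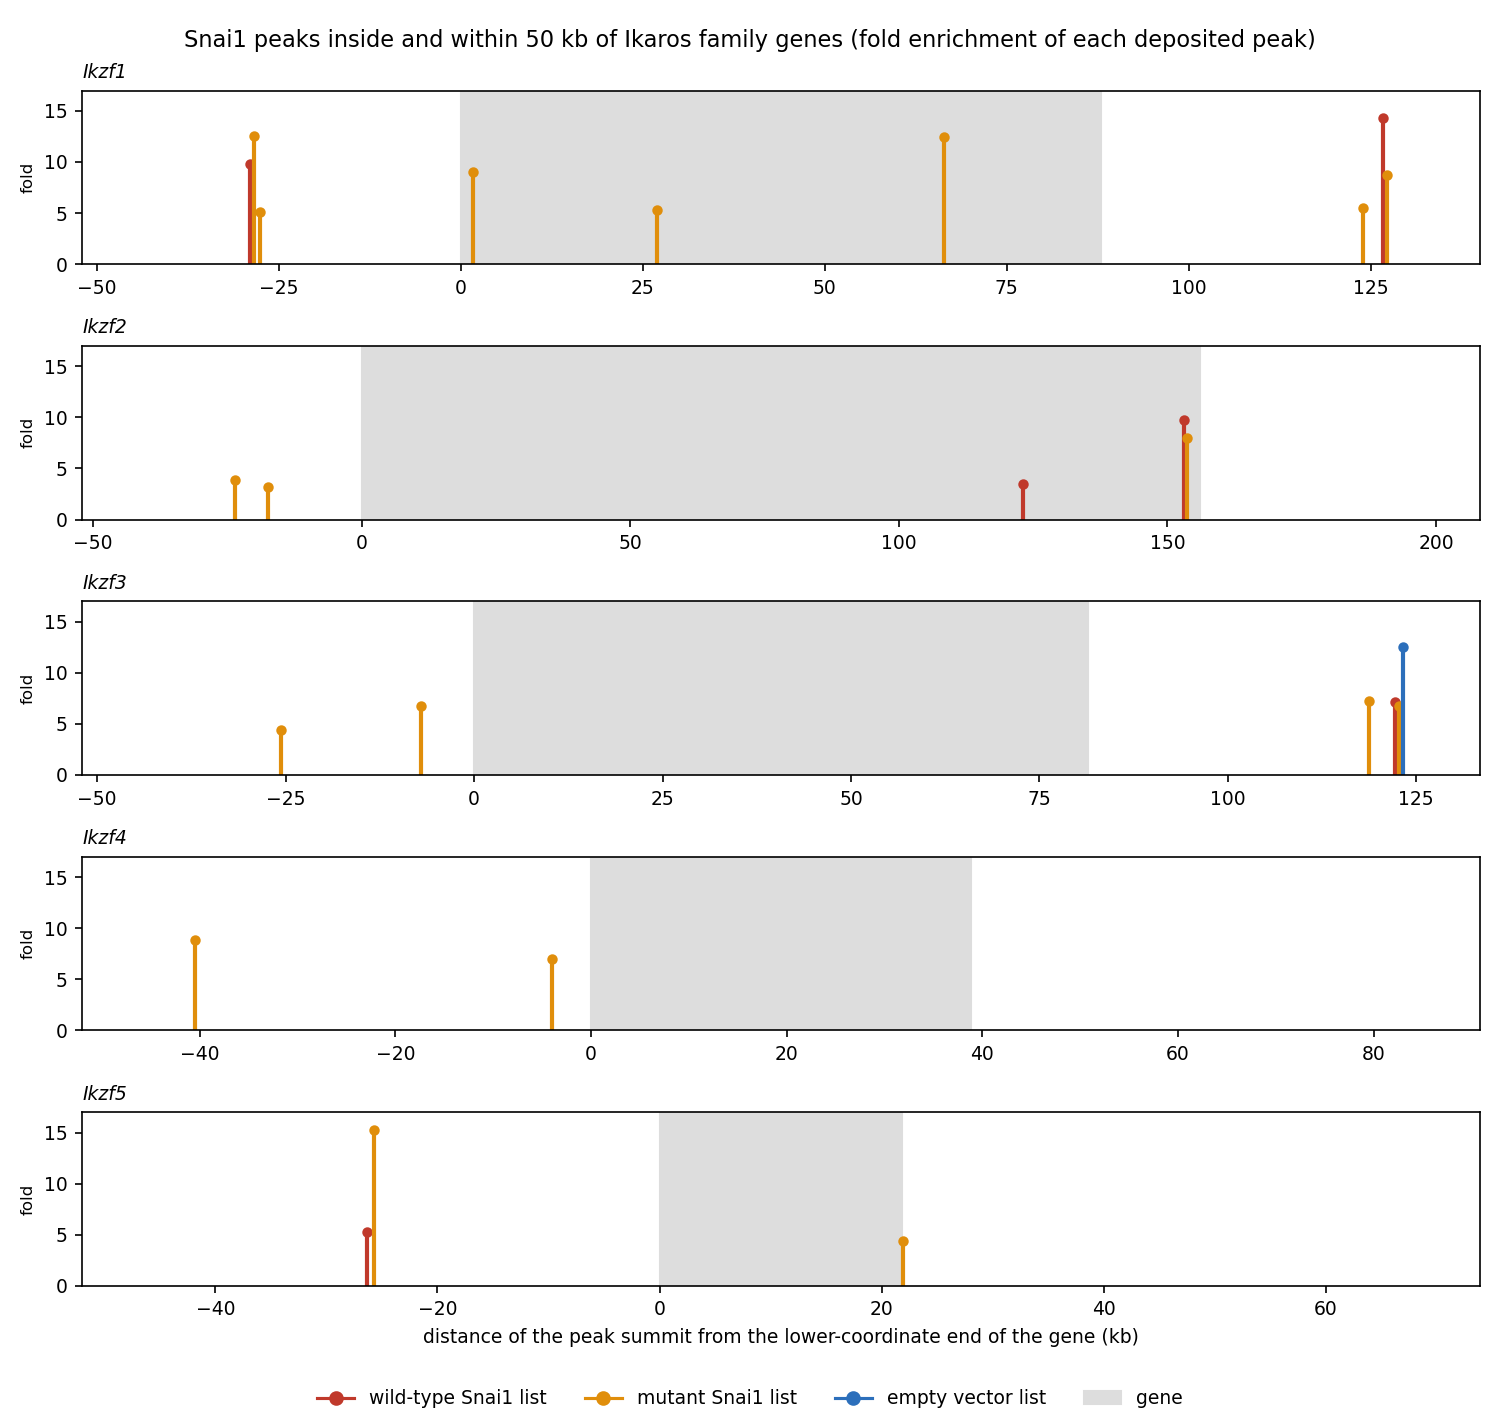
Snai1 peaks around each Ikaros family gene, placed by the distance of the summit in kb from the lower-coordinate end of the gene (grey bar), with the deposited fold enrichment as height and colours for the lists; sticks of overlapping peaks are set slightly apart so that each can be seen. Mutant peaks are the most numerous around every gene, wild-type peaks lie inside Ikzf2 only, and the one empty-vector peak lies beyond Ikzf3.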

How the data were processed

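The genes and the lists were chosen with earlier results of these data known. The count table holds raw read counts in windows around start sites, with 5 kb in the table's name, not stated to be the full width or the reach to each side, and no coordinates, made by the authors with Subread and featureCounts per the submitters' notes on processing. The peak lists hold for each peak a fold enrichment and a −log10 q value as deposited by the authors, whose peak caller was MACS2 per the submitters' processing notes. Versions, the control used for peaks and the strandedness are not given in the sources used here. The builds named are GRCm38 and mm10, the same assembly.

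Of 27095 gene IDs, 25204 (93.0%) matched a symbol in the RefSeq table of GRCm38.p6. Rows with no read (20) and rows equal to an earlier row (31) were left out, leaving 27044. Library depths are in the report, and they and the 2 or 3 libraries per group limit the precision. Each mark's counts were fitted for the 3 constructs together with edgeR 4.0.16 in R 4.3.3: quasi-likelihood F-test, TMM, filterByExpr by group, two-sided, with Benjamini-Hochberg adjustment over all windows tested, at 0.05. Wild-type libraries were set against IgG on column totals. The procedure was tested on simulated counts with a single spread for all windows and no difference between replicate 1 and the others. That check cannot show how the tests behave with the replicate 1 difference of these libraries. DESeq2 1.42.0, other scalings, a batch term and left-out libraries were alternatives.

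Samples with the same replicate number were checked for pairing: against the empty vector their deviations correlated at 0.12 to 0.57 in every pair, which met the rule for pairing. Replicates 2 and 3 of different number correlated there at 0.06 to 0.40, much the same, so the correlations separate replicate 1 from the others more than they pair samples by number. For wild type against mutant same-numbered samples ran from -0.22 to 0.24 and do not pair.

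Peaks were joined to genes with Python 3.11.15 (pandas 2.3.3), an overlap being at least 1 base. By rule all 5 genes, the 3 windows most like each, up to 2 list members with the smallest p (named here for the comparisons where they add to the text) and up to 4 peaks per gene and list were named, and one further Ikzf1 peak was named after its values were seen.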

Additional observations from a re-analysis of the deposited data

How the results depend on the processing

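Over all alternatives 0 of 495 adjusted p-values of the family's differences between constructs fell under 0.05, and 0 of 5 windows passed in each comparison with the replicate block as without it. With the replicate block Ikzf2 (0.40) and Ikzf4 (-0.58) had an unadjusted p under 0.05 in H3K4me1 for wild-type Snai1 against the empty vector, as did 11.3% of all windows. Over all windows the block called 5, 0 and 12 in H3K4me2 (wild type and mutant against the empty vector, then wild type against mutant), against 1, 0 and 0 without it, and 2, 0 and 2 in H3K4me1 against 0 in each. DESeq2 called 88, 8 and 72 in H3K4me2 and 4, 0 and 32 in H3K4me1.

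Of the values of single windows, 529 kept their direction and their side of the threshold, and 44 turned sign. On column totals Ikzf5 was -0.01 in H3K4me2 (wild type against the empty vector) and Ikzf1 -0.03 (wild type against mutant). Scaling to silent gene families moved the median of all H3K4me2 windows to 0.12, -0.13 and 0.25 in the order above, and gave Ikzf2 -0.05 (mutant against the empty vector) and Ikzf3 0.10 and Ikzf4 0.16 (wild type against mutant). In H3K4me1 it gave Ikzf1 -0.02 and Ikzf5 0.02 for wild type against mutant. With chromosome medians set equal Ikzf1 was -0.02 in H3K4me2 and -0.03 in H3K4me1 for wild type against mutant, and 0.01 in H3K4me1 for the mutant against the empty vector. For Ikzf1 in H3K4me1 against the empty vector, the replicate block and the batch term each gave 0.04 for the wild type and 0.01 for the mutant, and empty-vector replicates kept separate gave 0.03 and 0.02. With replicates 2 and 3 summed and a batch term Ikzf1 was 0.03, 0.03 and -0.01, and Ikzf5 0.01 for wild type against mutant.

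Leaving out 1 library at a time, where a group with 1 library left is assumed to vary like the others, gave in H3K4me2 a range of -0.06 to 0.13 for Ikzf2 (mutant against the empty vector) and -0.21 to 0.01 for Ikzf4 (wild type against mutant). In H3K4me1 the ranges for the wild type against the empty vector were -0.05 to 0.14 for Ikzf1, -0.14 to 0.05 for Ikzf3 and -0.06 to 0.14 for Ikzf5. For the mutant against the empty vector they were -0.25 to 0.13 for Ikzf1, -0.03 to 0.38 for Ikzf2, -0.07 to 0.21 for Ikzf3 and -0.03 to 0.15 for Ikzf5. For wild type against mutant they were -0.10 to 0.23 for Ikzf1, -0.26 to 0.01 for Ikzf3 and -0.09 to 0.05 for Ikzf5. Against IgG in H3K4me1, Ikzf5 ranged from -0.03 to 0.29 and the number of windows above IgG from 1 to 2. Genes with a peak within 5 kb in place of 50 kb numbered 1 in place of 4 in the wild-type list and 0 in place of 1 in the empty-vector list, since fewer peaks lie that near. Depth limits Ikzf3 and Ikzf4 the most, with as few as 32 H3K4me2 reads in a library.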
